A study of Glycine max with 16 samples.

Results

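The genes described here are 8 fatty acid desaturase genes of soybean (Glycine max), taken by identifier from the 56044 genes of the deposited table. The oleate desaturases (FAD2) are 5 of them, namely FAD2-1A (Glyma.10G278000), FAD2-1B (Glyma.20G111000) and 3 FAD2-2 genes, Glyma.19G147300, Glyma.19G147400 and Glyma.03G144500. The linoleate desaturases (FAD3) are the other 3, FAD3A (Glyma.14G194300), FAD3B (Glyma.02G227200) and FAD3C (Glyma.18G062000). Names and identifiers were paired by the rule that chose the genes. The identifiers number the chromosomes 10, 20, 19, 19, 3, 14, 2 and 18 in that order, and positions on a genome build were not used here. All 8 genes had a row in the table. The rule that chose them uses gene family and identifier, and earlier results of these data were known when it was written.

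Leaf RNA was compared between seedlings of 4 lines, namely null plants and 3 transgenic lines over-expressing GmWRKY54 (A004A, A005B and B010C), a plant transcription factor gene of the WRKY family. Seedlings were 2 weeks old, and trifoliate leaves came either from well-watered plants or from plants that had been dehydrated in air for 6 h. The labels name the null line B001A. They list 16 samples in 8 groups of 2, and the table holds 1 value per gene for each group, so there was no replicate value within a group. The sources used here state neither the promoter driving GmWRKY54 nor whether a line goes back to 1 transformation, and no source at hand pairs GmWRKY54 with an identifier, so its level was not used to check the labels.

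FAD2 enzymes sit in the membrane of the endoplasmic reticulum and put a second double bond into oleate, which makes linoleate. FAD3 enzymes of the same membrane put a further double bond into linoleate, which makes alpha-linolenate. In soybean the FAD2-1 genes are known for their activity in developing seeds, where their loss gives oil rich in oleate, and FAD2-2 genes are known to be active in vegetative tissue as well. Losses of FAD3A, FAD3B and FAD3C are known to lower the alpha-linolenate of seed oil. In leaves a separate set of plastid desaturases makes much of the alpha-linolenate of the photosynthetic membranes.

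Expression is given as RPKM, which scales reads by the length of the gene and by the mapped reads of the library, so that levels of different genes can be set side by side per length. Read depth is unknown. Column sums of RPKM lay between 636011 and 818267. In whole leaves, a lower value can come from fewer cells of a type or from less RNA per cell, and these cannot be told apart. The labels do not say whether the leaves of watered plants were taken at the same time as the dehydrated ones, so drying and time of day or elapsed time cannot be told apart either. The labelled tissue could not be checked against leaf and seed marker genes, because no source at hand pairs these with identifiers. The sources used here do not say how reads matching more than 1 copy of a family were counted, so the values of close copies (FAD2-1A with FAD2-1B, the FAD2-2 genes with each other, and FAD3A with FAD3B) are uncertain to that extent.

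**Figure D1:**
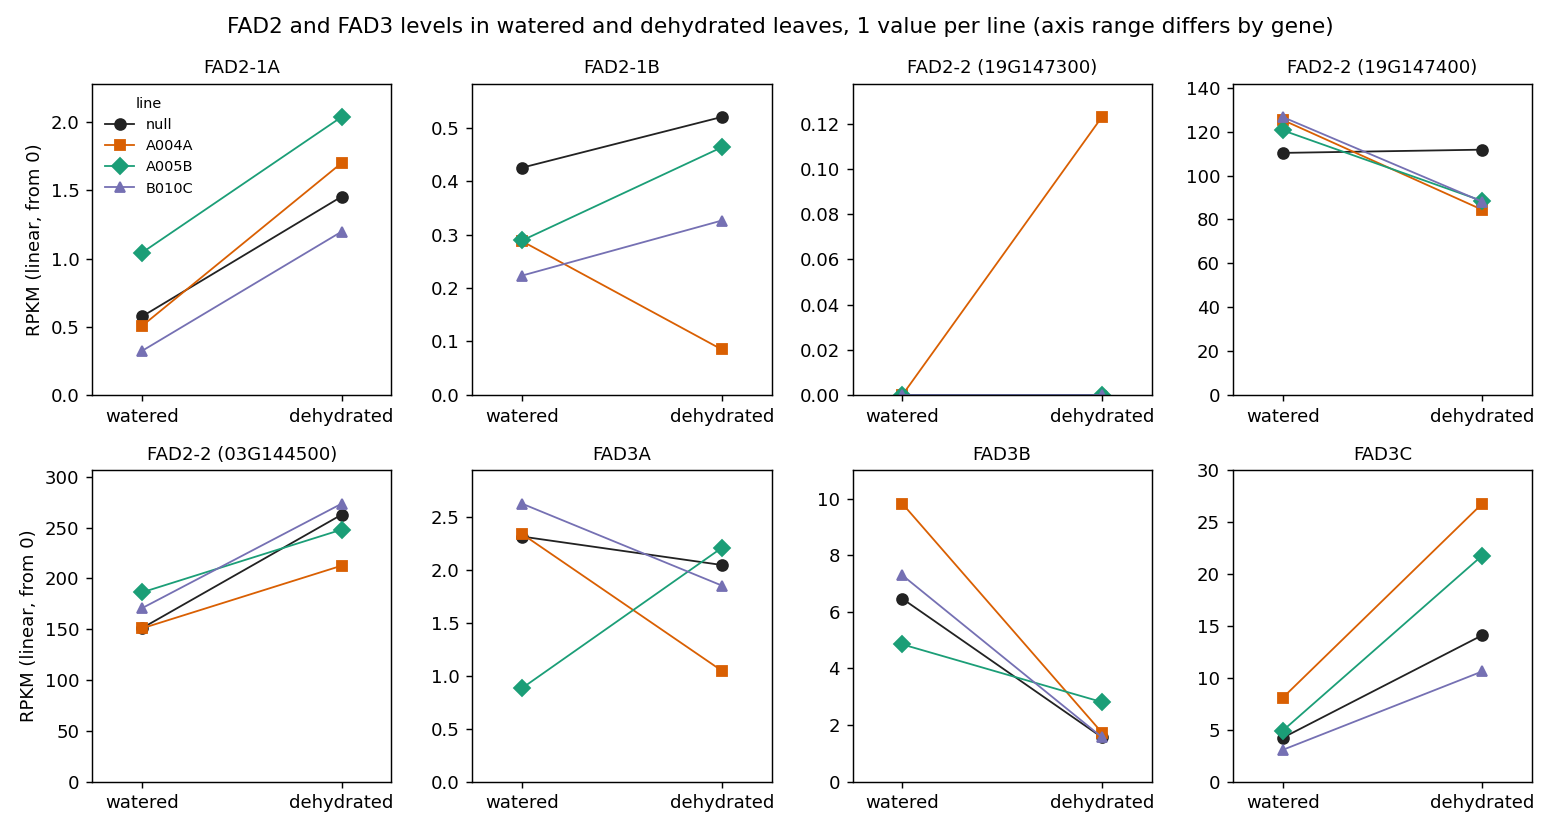
RPKM (linear axis from 0, with its own range in each panel) of the 8 genes in watered and dehydrated leaves, with 1 point per line and a line joining the columns of the same plant line. FAD2-2 (Glyma.03G144500), FAD2-1A and FAD3C lay higher and FAD3B lower after drying in 4 of 4 lines.

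Drying was followed by opposite changes of 2 of the 3 linoleate desaturase genes and by a rise of 2 of the 5 oleate desaturase genes. FAD3C, FAD2-1A and the FAD2-2 gene Glyma.03G144500 rose, FAD3B fell, and the abundant FAD2-2 gene Glyma.19G147400 and FAD3A did not pass the test. Of the 8 genes, 6 reached 1 RPKM in at least 2 columns and were tested. Among these 6, 3 were called higher and 1 was called lower at an adjusted p under 0.05, where 28.7% of the 34400 genes tested were called higher and 40.0% lower (limma with terms for line and treatment, Benjamini-Hochberg adjustment over all genes tested). Of the 3, FAD2-1A met the filter through its dehydrated columns, where it was high, so the counts over the tested genes describe these genes and are not read against those shares. The same 4 genes were those whose watered and dehydrated columns did not overlap, 3 higher and 1 lower, against 27.5% and 37.5% of all genes tested. Calls were thus common throughout the transcriptome, and a call by itself does not set these genes apart. The median log2 change was 0.25 over the 6 genes tested and -0.18 over all genes tested.

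The FAD2-2 gene Glyma.03G144500 had the highest level of the 8 genes in every column. In watered leaves it stood at 151.1 RPKM in null, 150.9 RPKM in A004A, 186 RPKM in A005B and 171 RPKM in B010C. After drying it stood at 263 RPKM in null, 213 RPKM in A004A, 248 RPKM in A005B and 273 RPKM in B010C. Each dehydrated value lay above each watered value, and A004A was the lowest line in both treatments. The rise was 1.33-fold to 1.74-fold by line, and the mean log2 change was 0.59 ± 0.18 SE (limma, adjusted p = 0.0201). The call was lost after quantile normalization (adjusted p = 0.0583), without line B010C (adjusted p = 0.0730) and without null (adjusted p = 0.0791), while the direction held in each.

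Glyma.19G147400, also a FAD2-2 gene, was the second most abundant of the 8 and lay lower after drying in the 3 transgenic lines. Watered leaves gave 110.3 RPKM in null, 125 RPKM in A004A, 121 RPKM in A005B and 127 RPKM in B010C. Dehydrated leaves gave 112 RPKM in null, 84.4 RPKM in A004A, 88.4 RPKM in A005B and 88.1 RPKM in B010C. Null was the lowest line when watered and the highest after drying. The dehydrated to watered ratio was 1.01 in null and 0.673 to 0.733 in the transgenic lines. The mean log2 change over the 4 lines was -0.38 ± 0.17 SE and did not pass (limma, adjusted p = 0.0879), but it passed after quantile normalization (-0.53, adjusted p = 0.0263) and in a fit without the term for line (adjusted p = 0.0431). After median-of-ratios scaling the mean change was -0.14 (limma, adjusted p = 0.441). The difference between the transgenic and the null response did not pass either (log2 difference -0.53 ± 0.31 SE, limma, adjusted p = 0.613). Its fit had no term for line, and its SE was moderated over all genes tested. The transgenic lines lay close together for this gene, at 121 to 127 RPKM watered and 84.4 to 88.4 RPKM dehydrated. The SE therefore does not describe the spread of this gene alone. By line the log2 change was 0.019 in null, -0.56 in A004A, -0.44 in A005B and -0.52 in B010C.

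The neighbouring identifier Glyma.19G147300 was the least expressed of the FAD2-2 genes. It was listed at 0 in 7 of the 8 columns and at 0.123 RPKM in dehydrated A004A. It passed no filter, and no fold is given.

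The FAD2-1 genes were low in these leaves. FAD2-1A stood at 0.575 RPKM in watered null, 0.506 RPKM in A004A, 1.04 RPKM in A005B and 0.323 RPKM in B010C. After drying the values were 1.45 RPKM in null, 1.70 RPKM in A004A, 2.04 RPKM in A005B and 1.20 RPKM in B010C. The watered and dehydrated values did not overlap, and A005B was the highest and B010C the lowest line in both treatments. The ratio of dehydrated to watered lay between 1.95 and 3.71 by line. On the log2(RPKM + 1) scale, which understates changes at such levels, the rise was 0.70 ± 0.14 SE (limma, adjusted p = 0.00254). With a pseudocount of 0.1 it was 1.32. FAD2-1A reached 1 RPKM in 5 columns, of which 4 were the dehydrated ones, so it entered the test through the treatment in which it was high.

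FAD2-1B stayed under 1 RPKM in every column and was not tested. Its watered values were 0.425 RPKM in null, 0.288 RPKM in A004A, 0.289 RPKM in A005B and 0.223 RPKM in B010C. Its dehydrated values were 0.520 RPKM in null, 0.0851 RPKM in A004A, 0.463 RPKM in A005B and 0.326 RPKM in B010C. The treatments overlapped, with 3 lines higher and A004A lower after drying. Without a filter on low values its log2 change was 0.036 ± 0.085 SE (limma, adjusted p = 0.847).

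FAD3C rose in every line. Watered leaves held 4.22 RPKM in null, 8.07 RPKM in A004A, 4.90 RPKM in A005B and 3.06 RPKM in B010C. Dehydrated leaves held 14.1 RPKM in null, 26.8 RPKM in A004A, 21.8 RPKM in A005B and 10.6 RPKM in B010C. The treatments did not overlap, and the lines kept the same order in both, from A004A through A005B and null to B010C. The rise lay between 3.32-fold in A004A and 4.44-fold in A005B. The mean log2 change was 1.65 ± 0.14 SE (limma, adjusted p = 3.20e-05), and the call held in all 11 alternatives run, from 1.55 to 1.86.

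FAD3B moved the opposite way and fell in every line. It stood at 6.46 RPKM in watered null, 9.82 RPKM in A004A, 4.85 RPKM in A005B and 7.29 RPKM in B010C. Dehydrated values were 1.57 RPKM in null, 1.73 RPKM in A004A, 2.81 RPKM in A005B and 1.57 RPKM in B010C. The treatments did not overlap, and A005B had both the lowest watered and the highest dehydrated value. Dehydrated leaves held 0.177 to 0.242 of the watered level in null, A004A and B010C and 0.580 of it in A005B. On the log2 scale FAD3B fell by 1.46 (SE 0.22, limma, adjusted p = 0.000752), and by 1.74 without A005B.

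FAD3A, the third linoleate desaturase gene, did not move in a common direction. Its watered values were 2.31 RPKM in null, 2.34 RPKM in A004A, 0.884 RPKM in A005B and 2.62 RPKM in B010C. After drying they were 2.04 RPKM in null, 1.05 RPKM in A004A, 2.21 RPKM in A005B and 1.85 RPKM in B010C. The treatments overlapped, with 3 lines lower and A005B higher after drying. The mean log2 change of -0.10 ± 0.24 SE did not pass (limma, adjusted p = 0.720), and its sign turned after median-of-ratios scaling (0.045), after quantile normalization (0.13) and without A004A (0.10).

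**Figure D2:**
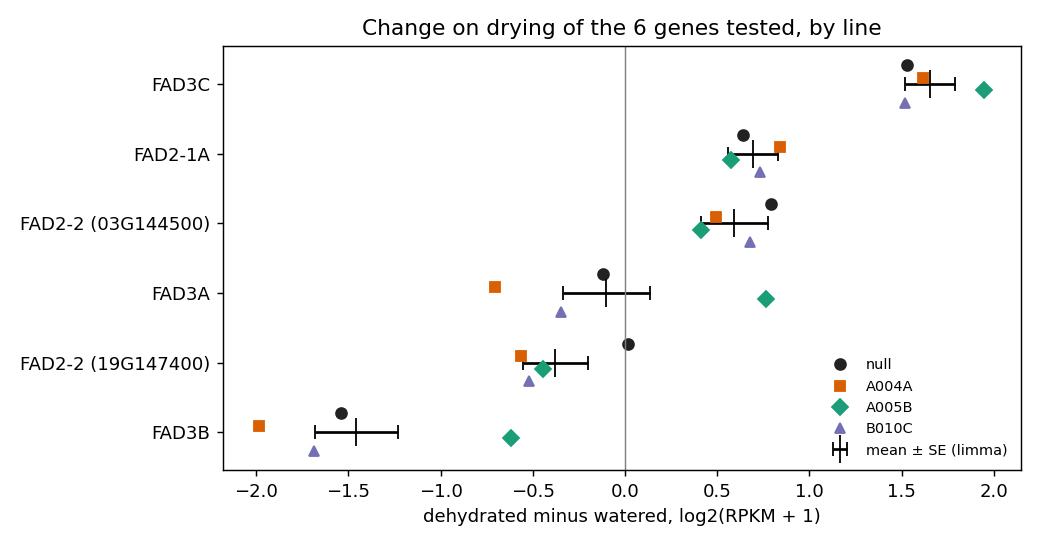
Dehydrated minus watered level on the log2(RPKM + 1) scale for the 6 genes tested, with 1 point per line and the limma mean ± SE in black. FAD3C lay farthest to the right at 1.65 and FAD3B farthest to the left at -1.46, and for FAD3A the sign of the mean (-0.10) turned with the scaling.

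These changes are on values as deposited, where the median of all genes tested was -0.18. Median-of-ratios scaling moved that median to 0.015. Under it FAD3C changed by 1.86, Glyma.03G144500 by 0.83, FAD2-1A by 0.81, Glyma.19G147400 by -0.14 and FAD3B by -1.27 on the log2 scale. The 4 calls held under that scaling, and the call for Glyma.03G144500 was lost under quantile normalization, as given above.

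By their medians, the order of the 8 genes differed between treatments in the places of FAD3A, FAD3B and FAD3C. In watered leaves the medians over the lines ran from Glyma.03G144500 (161 RPKM) and Glyma.19G147400 (123 RPKM) to FAD3B (6.88 RPKM), FAD3C (4.56 RPKM), FAD3A (2.32 RPKM), FAD2-1A (0.541 RPKM) and FAD2-1B (0.288 RPKM). Ranges over the lines overlapped between FAD3B and FAD3C, between FAD3A and FAD2-1A, and between FAD2-1A and FAD2-1B, so these neighbours did not differ beyond their spread over the lines. Within lines, FAD2-1A was nevertheless above FAD2-1B in 4 of 4 watered columns. In dehydrated leaves the medians were 255 RPKM for Glyma.03G144500, 88.3 RPKM for Glyma.19G147400, 17.9 RPKM for FAD3C, 1.95 RPKM for FAD3A, 1.65 RPKM for FAD3B, 1.58 RPKM for FAD2-1A and 0.395 RPKM for FAD2-1B. FAD3C now stood apart above FAD3A, FAD3B and FAD2-1A, whose ranges overlapped. Of all genes of the table, 99.1% lay at or below Glyma.03G144500 in watered and 99.3% in dehydrated leaves (median over the lines). For FAD3C this share was 64.6% in watered and 86.1% in dehydrated leaves.

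Set against its family, each gene's share of the RPKM shows where the transcripts lay. The 5 FAD2 genes summed to 262 to 308 RPKM in watered and 299 to 376 RPKM in dehydrated leaves. Glyma.03G144500 and Glyma.19G147400 together made up 99.3% to 99.8% of that sum, so nearly all FAD2 transcript in these leaves was of the FAD2-2 type. The share of Glyma.03G144500 went from 54.5% to 60.4% in watered leaves to between 69.8% and 75.3% after drying, with no overlap. The share of Glyma.19G147400 went from between 39.1% and 45.3% to between 24.3% and 29.7%.

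The FAD3 sum was far smaller. It went from 12.997 to 17.7 RPKM in null, from 20.2 to 29.6 RPKM in A004A, from 10.6 to 26.8 RPKM in A005B and from 12.97 to 14.04 RPKM in B010C. It was higher after drying in all 4 lines, least so in B010C. As a share of the FAD2 sum it lay between 3.45% and 7.30% in watered and between 3.87% and 9.89% in dehydrated leaves, and the treatments overlapped. Within the family, FAD3B made up 45.6% to 56.2% in watered leaves and 5.86% to 11.2% in dehydrated leaves. FAD3C went from between 23.6% and 46.1% to between 75.6% and 90.6%. FAD3A held 8.31% to 20.2% when watered and 3.54% to 13.2% when dehydrated, with overlap.

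**Figure D3:**
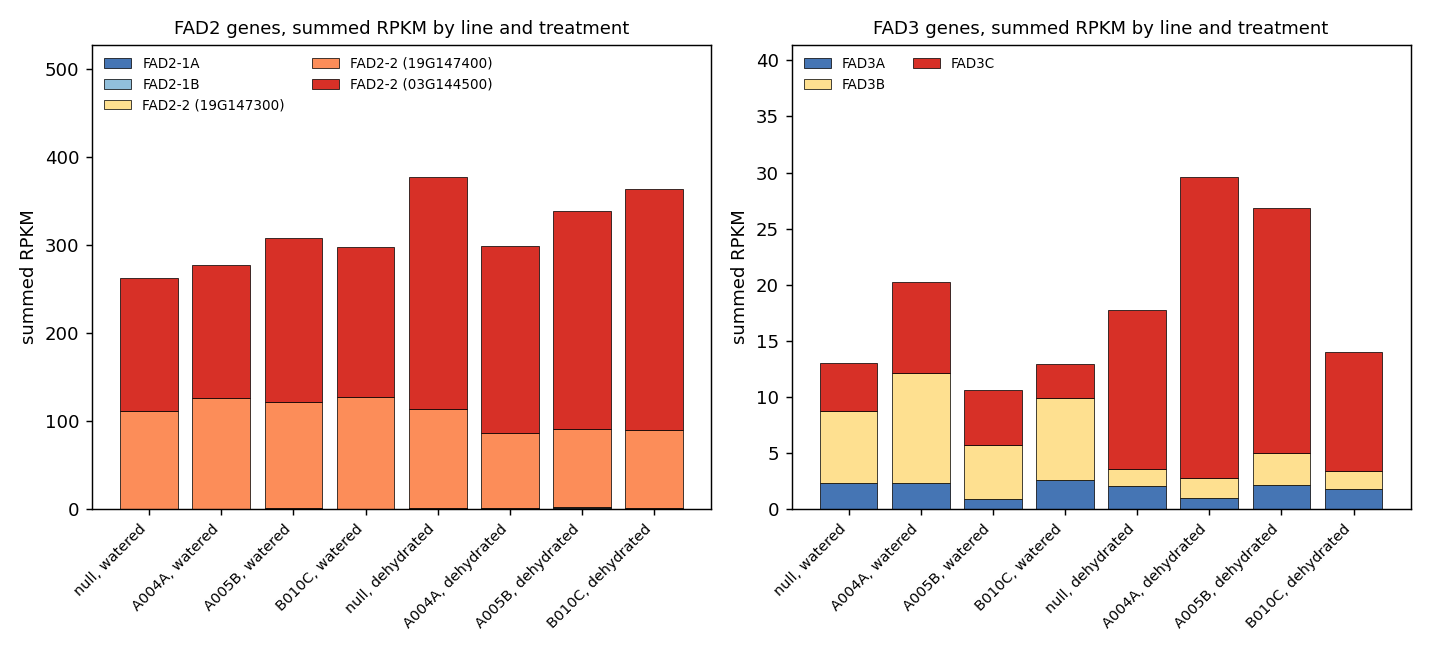
Summed RPKM (bars from 0) of the FAD2 genes and of the FAD3 genes in each line and treatment, divided by gene. The FAD2 bars consist almost wholly of Glyma.03G144500 and Glyma.19G147400, and FAD3C takes 75.6% to 90.6% of the FAD3 bars in dehydrated leaves.

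Ratios between members within a column were compared over the 4 lines. A plain ratio of RPKM does not depend on the scaling of the column, whereas the log2 ratio that was tested has a pseudocount of 1 added to both genes and does, most of all for genes of low level. Glyma.03G144500 stood at 1.20 to 1.54 times Glyma.19G147400 in watered leaves and at 2.35 to 3.10 times in dehydrated leaves. The log2 ratio was higher after drying by 0.97 ± 0.19 (SD, n = 4 lines; exact sign-flip permutation test, two-sided p = 0.125). FAD3C stood at 0.420 to 1.01 times FAD3B when watered and at 6.76 to 15.5 times when dehydrated, a log2 difference of 3.11 ± 0.43 (SD, n = 4 lines; exact permutation p = 0.125). The ratio of FAD3A to FAD3B went from between 0.182 and 0.360 to between 0.604 and 1.30. The log2 difference was 1.36 ± 0.059 (SD, n = 4 lines; exact permutation p = 0.125). FAD2-1A stood at 1.35 to 3.61 times FAD2-1B in watered and 2.80 to 19.98 times in dehydrated leaves, and these ranges overlapped. The 19.98 was in A004A, where FAD2-1B was at 0.0851 RPKM, and the other dehydrated lines gave 2.80 to 4.40. The log2 difference for FAD2-1A to FAD2-1B was 0.66 ± 0.30 (SD, n = 4 lines, exact permutation p = 0.125). With a pseudocount of 0.1 that difference was 1.30, and those of FAD3A to FAD3B and FAD3C to FAD3B were 1.70 and 3.66. Each of the 4 ratios moved the same way in 4 of 4 lines. The ratios of FAD3A and of FAD3C to FAD3B share FAD3B, which fell in 4 of 4 lines, so they are not independent of each other or of that fall. With 4 lines 0.125 is the smallest p the test can give, before and after Benjamini-Hochberg adjustment over the 4 ratios, so none could pass 0.05. The ratios of Glyma.03G144500 to Glyma.19G147400 and of FAD3C to FAD3B were chosen after their values had been seen.

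Whether over-expression of GmWRKY54 changed these genes was asked by setting the 3 transgenic lines against null. None of the 6 genes tested was called in watered leaves, in dehydrated leaves or for the difference of the drying response, and 0 of the 6 had an unadjusted p under 0.05 in any of these comparisons (limma). Of all 34400 genes, 0% were called in watered leaves, 0.00581% in dehydrated leaves and 0.00291% for the response, and 1103, 5041 and 3289 genes had an unadjusted p under 0.05. The null group has 1 column per treatment and was taken to vary as the transgenic lines do. The 3 transgenic lines were taken as 1 group, and their levels of GmWRKY54 were not used. Any difference between them that goes with that level would therefore enter the spread. For the response, the fit did not pair the columns of a line, so differences of level between lines entered its spread. These tests therefore do not show the lines to be alike.

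In watered leaves the mean log2 differences from null lay between -0.23 for FAD3A and 0.20 for FAD3C, with SE from 0.22 to 0.55 (limma, adjusted p = 1 for each). In dehydrated leaves they lay between -0.36 ± 0.22 SE for Glyma.19G147400 and 0.36 ± 0.55 SE for FAD3C, with adjusted p from 0.467 to 0.896. Glyma.19G147400 was lower than null in 3 of 3 dehydrated transgenic lines, at 0.755 to 0.791 of the null value, and higher than null in 3 of 3 watered ones, at 1.09 to 1.15 times. The dehydrated difference was -0.17 with quantile-normalized values and likewise -0.17 with median-of-ratios scaling. Over all genes tested, the median of the dehydrated difference was -0.16 on values as deposited, where that of Glyma.19G147400 was -0.36. It was -0.017 with quantile-normalized values and -0.019 with median-of-ratios scaling. For FAD3C, A004A stood at 1.91 times null in watered and 1.90 times in dehydrated leaves, A005B at 1.16 and 1.54 times, and B010C at 0.724 and 0.753 times. The transgenic lines thus lay on both sides of null for FAD3C in both treatments. FAD3A was lowest in A005B among watered lines, at 0.382 of null, and lowest in A004A among dehydrated lines, at 0.512 of null. FAD3B in A005B was at 0.750 of null when watered and at 1.80 times null when dehydrated.

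**Figure D4:**
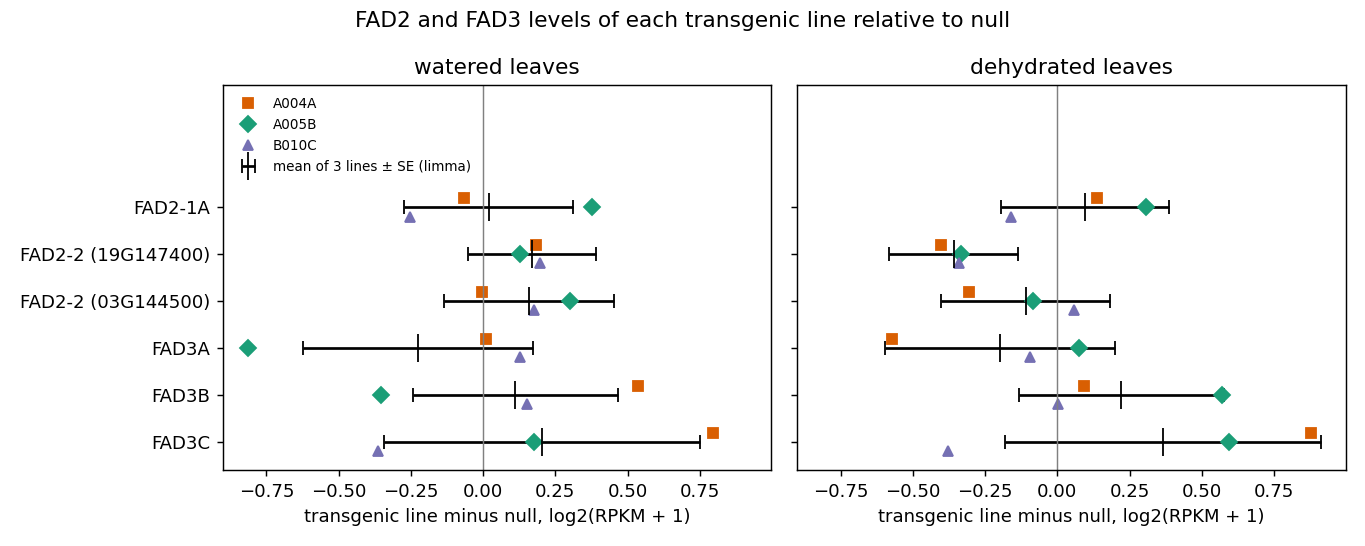
Level of each transgenic line minus null on the log2(RPKM + 1) scale in watered and dehydrated leaves, with the limma mean of the 3 lines ± SE in black. The 3 lines lie together below null for Glyma.19G147400 in dehydrated leaves (mean -0.36, where the median over all genes tested was -0.16), and on both sides of null for FAD3C.

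Genes with the most similar course were sought among the 34400 genes, as those with the smallest root mean square difference of log2 profiles over the 8 columns, each profile centred on its own mean. For FAD3C the closest was Glyma.17G260400 (difference 0.15), at 0.387 to 1.30 RPKM in watered and 2.56 to 6.24 RPKM in dehydrated leaves, followed by Glyma.06G094000 (0.22). For FAD3B they were Glyma.05G000900 (0.11), which went from 5.29 to 8.50 RPKM down to 1.18 to 2.79 RPKM, and Glyma.14G062700 (0.12). Glyma.03G144500 was matched most closely by Glyma.16G211100 (0.050) and Glyma.01G212200 (0.052). Glyma.19G147400 was nearest to Glyma.14G178300 (0.048) and Glyma.13G210300 (0.051), FAD2-1A to Glyma.20G116800 (0.092) and Glyma.17G175500 (0.10), and FAD3A to Glyma.14G174100 (0.13) and Glyma.04G078700 (0.13). Of these, Glyma.14G178300 stood at 0.958 to 1.17 RPKM in watered and 0.382 to 0.772 RPKM in dehydrated leaves. At such levels the log2(RPKM + 1) scale understates changes, so its closeness to Glyma.19G147400 holds on that scale only. No member was among the 2 closest genes of another. The nearest pair of members was FAD2-1A and Glyma.03G144500, at 0.24, and the farthest was FAD3B and FAD3C, at 1.61. With a pseudocount of 0.1, 2 of the 12 genes named here were still among the closest 2 of their member, and 9 of the 12 after median-of-ratios scaling.

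A further 20 identifiers were set down as possible other genes of fatty acid desaturation and oil synthesis. No source at hand pairs them with names, so they are counted without roles. All 20 had a row and 19 were tested. On drying, 8 were called higher, 10 lower and 1 was not called, where 28.7% of all genes tested were called higher and 40.0% lower, and the median log2 change was -0.45 against -0.18 over all genes tested (limma). Of the 19, 1 reached 1 RPKM in dehydrated columns alone and 1 in watered columns alone (Glyma.14G121400 and Glyma.11G227200), so each was tested through the treatment in which it was high. Glyma.18G202600 went from 1.85 to 2.71 RPKM in watered leaves to between 25.1 and 44.1 RPKM in dehydrated leaves (log2 change 3.44 ± 0.18 SE, limma, adjusted p = 4.37e-06). Glyma.14G121400 went from at most 0.193 RPKM to between 6.28 and 21.6 RPKM (3.40 ± 0.23 SE, adjusted p = 1.35e-05). In the other direction, Glyma.11G227200 fell from between 4.66 and 7.22 RPKM to between 0.210 and 0.590 RPKM (log2 change -2.33 ± 0.17 SE, adjusted p = 1.70e-05), and Glyma.03G056700 from between 20.6 and 25.5 RPKM to between 4.29 and 6.17 RPKM (-1.92 ± 0.15 SE, adjusted p = 2.24e-05). These 4 were picked by the size of their change after the values had been seen. For the transgenic lines against null, 0 of the 19 were called in either treatment or for the response, with a smallest adjusted p of 0.237.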

How the data were processed

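Leaf RNA-seq values of 16 labelled samples were used as 8 columns, 1 per line and treatment, and 0 columns were left out. The values are RPKM as the authors deposited them. Per the submitters' processing notes the aligner was TopHat (no version given). The sources used here state neither the counter, genome build and annotation nor whether the samples of a group were pooled or averaged. Among 1072 genes above 0 and under 0.3 RPKM in every column, the commonest ratio of a pair of columns was shared by 0.466% to 1.40% of genes (28 pairs, within a log2 window of 0.003), so whole reads could not be recovered, depth is unknown and no count model was used.

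The 34400 genes that reached 1 RPKM in 2 columns or more were used as log2(RPKM + 1). A log2 change is on that scale and understates changes of low genes, whereas folds and ratios not given as log2 are plain quotients of RPKM. limma 3.58.1 (R 4.3.3) was fitted over all kept genes with empirical Bayes moderation (with a trend), and two-sided p-values were adjusted by Benjamini-Hochberg over these genes, with calls at an adjusted p under 0.05. For drying the terms were line and treatment (3 residual degrees of freedom), so the spread is that of the drying response between lines. For transgenic lines against null, group means per treatment were used (4 residual degrees of freedom). The p-values for drying measure spread of the response between lines, and those against null measure spread of level between transgenic lines. Both spreads are moderated over all kept genes, so neither is that of a single gene alone. Nothing in the labels says whether samples were separate plants. Fits were tried on simulated data with independent normal noise of a common spread and no line effects, with changes added only to genes of higher level. Only the drying and the dehydrated transgenic against null comparisons were tried, so the simulation does not cover the spread of these data or genes of low level.

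All 8 members were named, and for each tested member the 2 genes nearest in profile. The list of 20 other identifiers was the fallback fixed for the case that no reference described the identifiers (0 matched the reference of assembly Glycine_max_v4.0, also when read as locus tags). For the same reason, marker lists for leaf, seed, root and stem could not be built. The members and lists were chosen with earlier results of these data known. Alternatives were another pseudocount, other filters, other scalings, no trend, no line term and leaving out each line.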

Additional observations from a re-analysis of the deposited data

Results flagged for a closer look

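Among the 4 dehydrated columns, null stood apart from the other lines for the FAD2-2 gene Glyma.19G147400, with 112 RPKM against 84.4 to 88.4 RPKM. The gap to the next line was 0.853 of the whole range. For the same gene the RPKM was slightly higher after drying in null (ratio 1.01) and lower in 3 of 3 transgenic lines. The difference of the responses was -0.53 on the log2 scale, in a fit that did not pair columns by line and where the median over all genes tested was -0.14. Tested in limma, this difference did not pass (adjusted p = 0.613, and 0.350 to 0.853 over the 9 alternatives run).

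For FAD3B, A005B stood apart among the dehydrated columns, at 2.81 RPKM against 1.57 to 1.73 RPKM, with a gap of 0.866 of the range. Chance flags about 1 in 20 such sets of columns, and 12 sets were examined.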

How the results depend on the processing

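The rise of FAD3C and FAD2-1A and the fall of FAD3B kept their direction and their call in every alternative that tested them. The number of members called higher was 2 or 3 throughout. The number called lower, 1 as reported, was 0 with a mean of at least 5 RPKM, which leaves FAD3B untested, and 2 both after quantile normalization and without the term for line, where Glyma.19G147400 was added. Glyma.19G147400 had a log2 change of -0.53 after quantile normalization and -0.38 without the term for line, both past the threshold, and of -0.51 to -0.31 when 1 line was left out. Its change was weakest after median-of-ratios scaling, at -0.14 (limma, adjusted p = 0.441). Glyma.03G144500 missed the threshold after quantile normalization (0.41) and without B010C or without null. Its range over the lines left out was 0.53 to 0.65, with adjusted p from 0.0348 to 0.0791. FAD3A, never past the threshold, turned its sign after median-of-ratios scaling (0.045) and quantile normalization (0.13), and ran from -0.39 to 0.10 with 1 line left out. The cause of these shifts was not tested. Among other pathway identifiers 7 or 8 were called higher and 7 to 11 lower. The comparisons with null called 0 members in each alternative, and the 4 ratios kept their direction, although that of FAD2-1A to FAD2-1B went from 0.66 to 1.30 with a pseudocount of 0.1. The ratio of Glyma.19G147300 to Glyma.19G147400 was not run, since the former was listed at 0 in 7 columns. Depth is unknown, which limits what can be said of FAD2-1B and other genes under 1 RPKM. No paired analysis was possible because the columns carry no replicate number of the labels; the fit for drying and the ratios pair columns by line only.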
